A study of Drosophila melanogaster with 6 samples.

Results

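The digestive lysozymes of Drosophila melanogaster are encoded by a group of neighbouring genes on chromosome arm 3L. The genes considered here are LysX, LysB, LysC, LysD, LysE, LysP and LysS, in their RefSeq order along the arm, and members were the probesets listed under one of these 7 symbols. Of the 18952 probesets in the table, 3 qualified, 1 each for LysX, LysP and LysS, and none of the 3 was shared with another gene. No probeset was listed under LysB, LysC, LysD or LysE in the annotation used, so these 4 genes were not analysed here. RefSeq classes LysC as a pseudogene and the other 6 as protein coding. The genes were chosen by their mutant minus control differences in these same arrays, in which LysX and LysP went opposite ways. Those differences are therefore given as a description, without a test.

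Lysozymes of this C type (chicken type) are small secreted enzymes that cut the sugar backbone of peptidoglycan, the polymer of the bacterial cell wall. In most animals they serve in immune defence, whereas the fly genes of this group are known for expression in the digestive tract, where they help to digest the bacteria of the food. Earlier work on the fly placed LysB, LysD and LysE in the midgut, LysS in the gastric caeca (blind sacs at the front of the midgut) and LysP in the salivary glands of adults, and described LysX mainly around metamorphosis.

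RNA was taken from whole female third-instar larvae and read on 6 Affymetrix Drosophila Genome 2.0 arrays, on which a probeset of short oligonucleotides reads each transcript. The mutant group (3 arrays) had the labelled genotype roX1SMC17ADf(1)52; [w+4D4.3] and carried neither roX1 nor roX2, the noncoding RNAs of the dosage compensation complex that acts on the male X chromosome. The control group (3 arrays) had that genotype plus a roX1 transgene, [hsp83-roX1+], driven by the broadly active hsp83 promoter. The labels call the controls wild type, yet both groups carry the roX1 and roX2 mutations and the w+ transgene, and the larvae's age within the instar is not given. Each array received RNA of a pool of 50 larvae, and the 3 preparations per genotype were independent, per the labels' design text. Values are log2 expression values from robust multi-array average (RMA), so a difference of 1 is a doubling. The RNA of whole larvae does not show in which organ a lysozyme was made, and in pooled larvae fewer cells of a type and less RNA per cell cannot be told apart.

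Array medians lay between 5.41 and 5.45. Glue genes of the salivary gland, which mark the end of larval life, were among the brightest signals, with Sgs3 at 14.0 in mutants and 14.1 in controls. The larvae are labelled female. None of the 7 Y-linked genes with a probeset passed the filter on dim probesets, which is no check of the label, since no male larvae were measured. Probesets of the actin messenger had an excess of 3' over 5' signal, a measure of RNA degradation, of 0.87 ± 0.090 in mutants and 0.72 ± 0.021 in controls, and those of the GAPDH messenger one of 1.38 ± 0.13 in mutants and 1.38 ± 0.033 in controls (SD, n = 3 each). The part of RNA quality in the values below was not tested.

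LysX transcript was much lower in the mutants. Its log2 values were 9.995, 10.055 and 9.828 in mutant larvae, against 11.655, 11.887 and 11.903 in control larvae. The groups were far apart: the highest mutant array lay 1.60 below the lowest control array, while the arrays of a group spanned 0.23 in mutants and 0.25 in controls. The means were 9.96 ± 0.12 in mutants and 11.8 ± 0.14 in controls (SD, n = 3 each), a difference of -1.86 (SE 0.10), which is a 3.62-fold lower signal in the mutants.

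LysP transcript was higher in the mutants. The probeset read 8.29, 8.64 and 8.51 in mutant larvae, against 7.64, 6.84 and 7.33 in control larvae. The groups did not overlap and stood 0.65 apart, less than the 0.80 by which the control arrays differed among themselves. The mutant arrays spanned 0.34. Means were 8.48 ± 0.17 in mutants and 7.27 ± 0.40 in controls (SD, n = 3 each), a difference of 1.21 (SE 0.20) or a 2.31-fold higher signal in the mutants.

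LysS, the gene next to LysP, had a lower mean in the mutants with overlapping groups. Its values were 11.97, 12.69 and 12.55 in mutant larvae, against 12.59, 13.24 and 13.27 in control larvae. The highest mutant array exceeded the lowest control array by a small margin, and both arrays numbered 1 were the lowest of their group, by 0.44 below the group mean in each. The means were 12.4 ± 0.38 in mutants and 13.0 ± 0.38 in controls (SD, n = 3 each), a difference of -0.63 (SE 0.25), so the difference was under 2 SD of the replicates. It was -0.41 without mutant replicate 1 and -0.85 without control replicate 1. LysS thus had the same sign of difference as LysX and the opposite sign to LysP, its direct neighbour. Signals of different probesets depend on their probes, so the levels of the 3 genes are not set against each other.

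**Figure D1:**
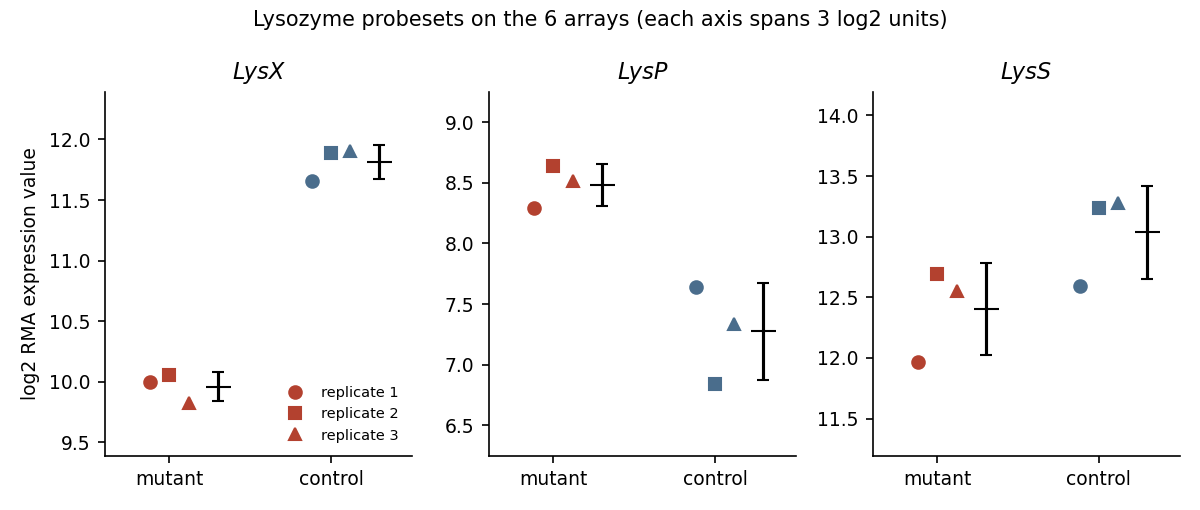
Log2 RMA expression values of LysX, LysP and LysS on each array, mutant left and control right. Symbols are replicates and the bars beside them are the mean ± SD (n = 3 each); the LysX and LysP groups do not overlap, and the LysS groups do.

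Of the 3 probesets, 1, LysX, was among those called different across the whole array (limma, adjusted p under 0.05 over 11262 tested probesets), where 62 or 0.551% were called, 0.355% as higher and 0.195% as lower in the mutants. This count follows from the choice of the genes. The number of called probesets ran from 12 without mutant replicate 2 to 84 without control replicate 1. On 2 of the 3 probesets the groups did not overlap, and this was so for 16.3% of all tested probesets. LysX was one of the 6 tested probesets with the lowest differences, LysP one of the 33 with the highest and LysS one of the 98 with the lowest.

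The 3 genes also differed in how much replicate arrays of 1 genotype varied. The genes were chosen on these same arrays, so this too is a description. The SD within groups was 0.13 for LysX, 0.31 for LysP and 0.38 for LysS. Among tested probesets whose mean level lay within 0.5 of each gene, the median SD was 0.13 around LysX (679 probesets), 0.12 around LysP (2055) and 0.13 around LysS (184). Over all tested probesets, 50.7% had a smaller SD than LysX, 92.2% a smaller one than LysP and 94.5% a smaller one than LysS. LysX thus lay near the middle of all tested probesets in its spread between pools, while LysP and LysS varied more than most. A wide spread was not particular to these 2 genes. Among the tested digestive proteases the SD within controls ran from 0.034 for Jon65Aiv to 2.91 for lambdaTry, against 0.40 for LysP and 0.38 for LysS. For LysS the pools of larvae differed about equally in both genotypes. For LysP the spread was mainly among controls, where replicate 1 lay 0.37 above and replicate 2 0.43 below the group mean.

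**Figure D2:**
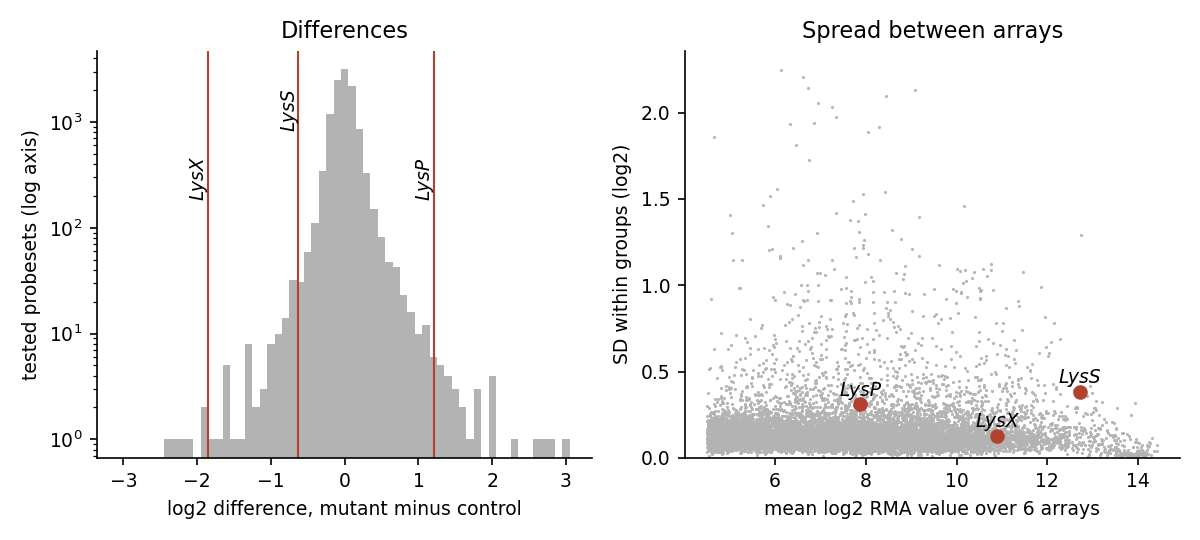
Left, histogram of the log2 differences, mutant minus control, of all 11262 tested probesets on a log count axis, with red lines at LysX (-1.86), LysS (-0.63) and LysP (1.21). Right, SD within groups against mean level for the same probesets, with the lysozymes in red; LysP (0.31) and LysS (0.38) lie above most of the cloud and LysX (0.13) lies within it.

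LysX lies at one end of the group, separated from the other lysozymes by unrelated genes. In RefSeq order the stretch from LysX to LysS holds 11 genes, of which 4 are not lysozymes, and all 4 lie between LysX and LysB. They are Aplip1, which encodes a scaffold protein of axonal transport, mwh (multiple wing hairs), which limits the hairs of wing cells, meep and CG9119. With the 5 nearest genes on the array on either side, they made 14 tested neighbours. None of the 14 was called by limma (smallest adjusted p = 0.446), where 0.551% of all tested probesets were called. An unadjusted p under 0.05 was found for 3 of the 14, against 9% of all tested probesets. Differences of the 14 neighbours ran from -0.28 for trio to 0.37 for meep. The nearest genes on the array to LysX were CG13912, with another gene between them in RefSeq order, and Aplip1, with differences of 0.042 and -0.24 (limma adjusted p = 0.967 and 0.446). The first gene on the array beyond LysS, CG33966, had -0.17 (limma adjusted p = 0.855). The transcription factor genes bab2 and bab1, known for patterning legs and pigment, had -0.20 and -0.16, and the mitotic kinesin gene Klp61F had 0.039. CG9205 had -0.19, mwh 0.16, CG9119 0.12, galene 0.032, CG9192 -0.047 and Psf1, a subunit of the replication complex GINS, 0.14.

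**Figure D3:**
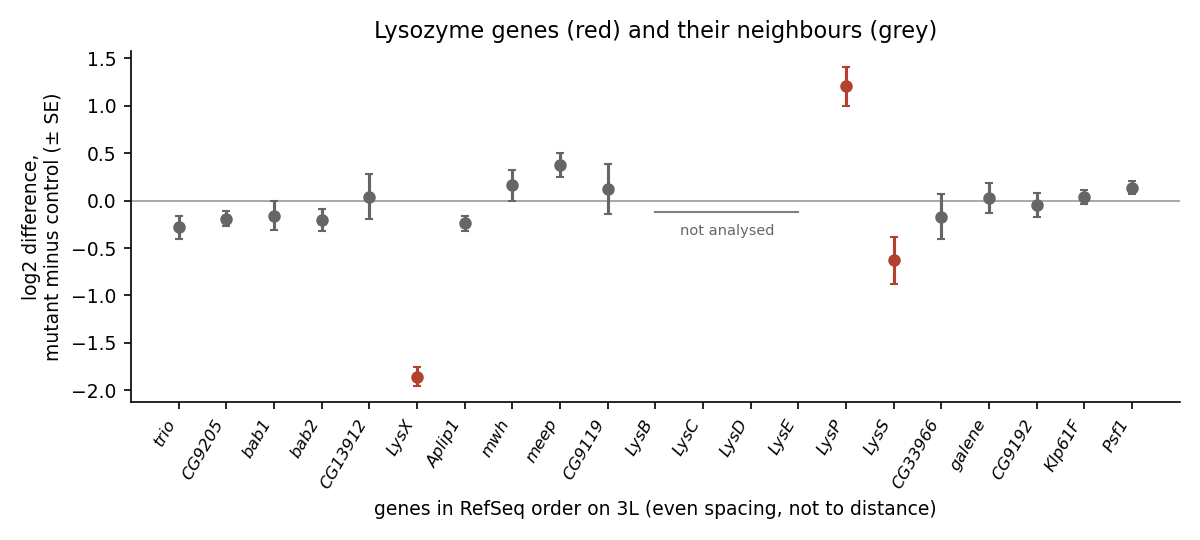
Log2 difference, mutant minus control, with its SE for the lysozyme genes (red) and their neighbours (grey) in RefSeq order on 3L, evenly spaced. LysX (-1.86) and LysP (1.21) lie on opposite sides of zero, the 14 neighbours lie between -0.28 and 0.37, and LysB to LysE were not analysed.

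Lysozyme family genes elsewhere in the genome did not pass the test. Of 10 with a probeset, 7 passed the filter on dim probesets and 0 were called by limma. Against 9% of all tested probesets, 2 of these 7 genes had an unadjusted p under 0.05. Their median difference was 0.062 (from -0.019 without control replicate 3 to 0.25 without mutant replicate 1), against -0.0048 over all 8882 genes tested, where 0.529% were called. The brightest, CG6426, encodes a lysozyme of the I (invertebrate) type. It read 11.28, 11.53 and 11.48 in mutants, against 11.23, 11.15 and 11.25 in controls (limma adjusted p = 0.536). CG16799, of the C type, read 11.05, 11.34 and 11.07 in mutants, against 10.73, 10.90 and 10.83 in controls (difference 0.33, limma adjusted p = 0.419). For these genes and for CG16756 (difference 0.65, limma adjusted p = 0.617) every mutant array lay above every control array. The CG16756 difference was 0.25 without control replicate 1. Non-overlap in this direction was seen in 3 of the 7, and in 7% of all tested probesets. CG14823 had -0.54, CG8492 -0.11 (0.29 without mutant replicate 3), CG11159 0.062 and CG7798 0.0055. The CG8492 arrays ran from 6.26 to 7.60 in mutants and from 7.13 to 7.20 in controls. The signals of CG30062, CG6421 and CG6429 were below the filter, with means of 3.92, 3.59 and 4.56 in mutants and 3.94, 3.70 and 4.20 in controls.

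Other genes that act on bacteria had lower means in the mutants in 5 of 7 cases for peptidoglycan recognition genes and in 5 of 6 for antimicrobial peptides, and 0 were called by limma with all 6 arrays at equal weight. With array weights 1 of each list was called, PGRP-LA and DptB (limma adjusted p = 0.0218 and 0.0112). Many products of the peptidoglycan recognition family, though not all, bind or cleave the same polymer. Among 7 tested genes of this list the median difference was -0.29, and -0.092 without control replicate 2. An unadjusted p under 0.05 was found for 3 of them, and for 9% of all tested probesets. PGRP-LA read 8.65, 8.46 and 8.38 in mutants, against 8.98, 9.19 and 9.02 in controls, without overlap (difference -0.56, limma adjusted p = 0.106). PGRP-LB, an amidase that removes the immune-stimulating power of peptidoglycan, had -0.35, and the gut amidase PGRP-SC2 had 0.42 (limma adjusted p = 0.520 and 0.501). PGRP-SB2, named here for its size after its values were seen, had the largest difference of this list, -1.90, and read 6.60, 6.06 and 5.07 in mutants, against 8.07, 10.30 and 5.06 in controls. Control replicate 3 lay just below the lowest mutant array, so the groups overlapped.

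Among 6 tested antimicrobial peptide genes the median was -0.35, and 2 had an unadjusted p under 0.05, against 9% of all tested probesets. The median was -0.026 without control replicate 2 and -0.54 without mutant replicate 1. DptB, a diptericin of the Imd immune pathway, read 7.07, 6.54 and 6.69 in mutants, against 7.34, 8.80 and 8.99 in controls (difference -1.61, limma adjusted p = 0.296). It was called without control replicate 1, where the difference was -2.13 (limma adjusted p = 0.0077). Defensin (Def) had -0.60 and metchnikowin (Mtk) -0.35 (limma adjusted p = 0.423 and 0.785), and the Mtk value was 0.020 without control replicate 2.

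Digestive enzyme genes were split about evenly between higher and lower means with all 6 arrays, and their list medians moved when single arrays were left out. Of 18 tested carbohydrase and lipase genes 9 had higher and 9 lower means in the mutants, with a median of -0.0012. The median was -0.20 without control replicate 1, 0.11 without control replicate 3 and -0.28 with array weights. None was called by limma, and 2 had an unadjusted p under 0.05, against 9% of all tested probesets. The largest of the 3 with the smallest p was tobi, a glucosidase gene controlled by diet and insulin, at 0.76 (limma adjusted p = 0.476). The maltase Mal-A6 had 0.40 and CG6271 -0.25. Of 24 tested trypsin and Jonah protease genes 13 had higher and 11 lower means, with a median of 0.015. It was -0.15 without control replicate 1 and 0.081 without mutant replicate 3. Again 0 were called by limma and 2 had an unadjusted p under 0.05. The Jonah protease gene Jon25Bii read 12.54, 12.41 and 12.27 in mutants, against 12.64, 12.97 and 13.02 in controls (limma adjusted p = 0.319, and 0.0272 with array weights). The trypsin gene betaTry had -0.76 and Jon65Aii -0.31 (limma adjusted p = 0.521 and 0.559).

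Markers of the midgut were measured beside the lysozymes, since LysS and LysX are read from RNA of the whole animal. Of 14 tested midgut epithelium and region markers 10 had lower means in the mutants, with a median of -0.15 (-0.092 without control replicate 1). Of the 14, 0 were called by limma and 4 had an unadjusted p under 0.05, against 9% of all tested probesets. On 6 of the 14 all mutant arrays lay below all control arrays, as on 9.33% of the tested probesets. GATAe, the GATA factor of the endoderm, read 7.62, 7.47 and 7.32 in mutants, against 7.67, 7.90 and 8.0 in controls (difference -0.39, limma adjusted p = 0.403). The factor gene pros, which marks enteroendocrine cells as well as neurons, had -0.53, and Ptx1, of the middle midgut, had -0.20 (limma adjusted p = 0.343 and 0.459). GATAe, pros and Ptx1 are named for having the smallest p. The 4 markers with higher means in the mutants were Vha100-4 (0.33), esg (0.11), Mur29B (0.078) and CG9663 (0.020). The summed linear signal of the 15 marker genes with a probeset was 7682 to 8407 in mutants and 8124 to 8566 in controls, so the groups overlapped. Beside these, LysX had -1.86, LysS -0.63 and LysP 1.21. The markers' part in the lysozyme values was not tested.

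**Figure D4:**
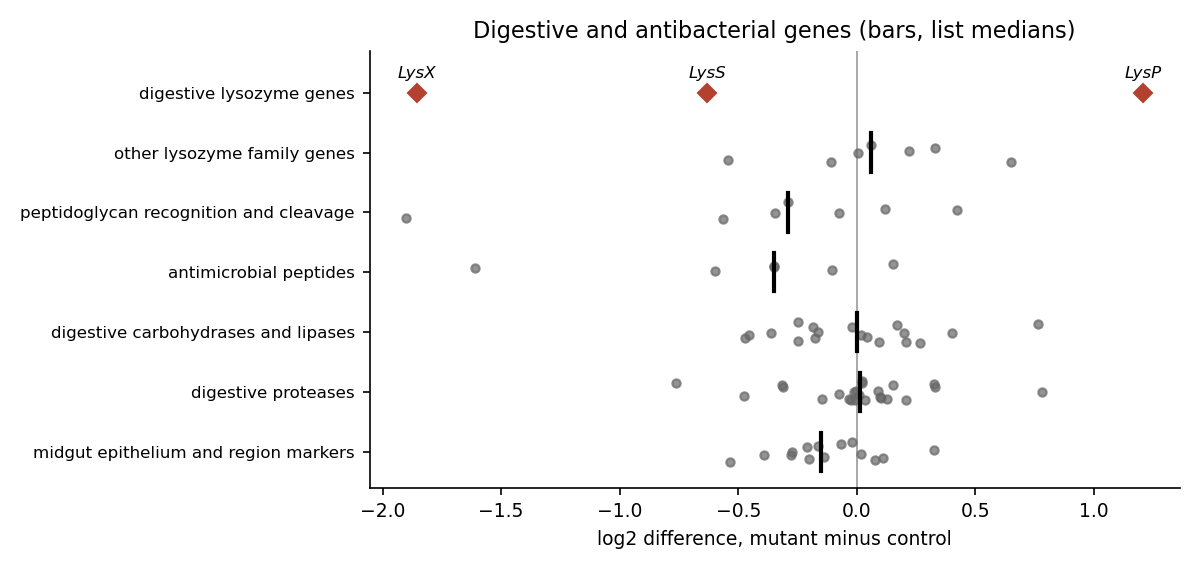
Log2 difference, mutant minus control, of LysX, LysS and LysP (red diamonds) and of each tested gene of 6 lists of digestive and antibacterial genes (grey points, spread vertically for legibility); black bars are list medians. The medians lie between -0.35 and 0.062, LysP (1.21) lies beyond every listed gene on the high side, and PGRP-SB2 (-1.90) lies beyond LysX (-1.86) on the low side.

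Markers of other tissues were read in the same way, and none was called by limma with all 6 arrays at equal weight. With array weights PPO2, PPO1 and MsrA, described below, were called (limma adjusted p = 0.0143, 0.0247 and 0.0450). The 11 tested salivary gland markers, of the tissue known for LysP in the adult, had a median of 0.065 (-0.00095 without control replicate 2). Of these, 0 had an unadjusted p under 0.05, against 9% of all tested probesets. Sgs3 had -0.086, the salivary gland gene ng1 0.73 and fkh, a transcription factor of the gland, -0.12 (limma adjusted p = 0.757, 0.699 and 0.760), and the ng1 value was 0.12 without control replicate 1. The 13 tested ecdysone and stage markers had a median of -0.080 (0.083 without control replicate 1), with 1 at an unadjusted p under 0.05: MsrA, an ecdysone-induced gene, had 0.54 (limma adjusted p = 0.282). ImpE3 had -0.29 and ImpL1 0.27. Muscle markers had a median of 0.21 over 7 tested genes, with 0 at an unadjusted p under 0.05 and with 0.70 for sls, 0.75 for Mlc2 and 0.22 for Act87E. Without control replicate 1 the median was 0.069, with 0.18 for Mlc2 and 0.069 for Act87E, and sls had 0.26 without mutant replicate 3. For 2 tissues the summed signals did not overlap between groups. Single probesets did so in 16.3% of all those tested, and linear sums weigh the brightest genes most. Hemocyte markers summed to 4585 to 5149 in mutants and 5870 to 7122 in controls over 8 genes, with a median difference of -0.13 over the 7 tested (-0.049 without control replicate 1) and 2 at an unadjusted p under 0.05. The prophenoloxidase genes PPO2 and PPO1 of crystal cells had -0.98 and -0.81 (limma adjusted p = 0.282 and 0.451). PPO2 was called without control replicate 1 (difference -1.24, limma adjusted p = 0.0469). The other tested hemocyte markers differed less: the collagen gene vkg had -0.17, NimC1 -0.13, Hml -0.092, Pxn 0.017 and eater 0.11. Fat body markers summed to 64808 to 68166 in mutants and 58727 to 63297 in controls over 8 genes, with a median of 0.051 over the 6 tested and 1 at an unadjusted p under 0.05. Fbp1, the larval serum protein receptor, had 0.28, FASN1 0.47 and apolpp 0.073. The other tested genes of this list, Lsp2, Fbp2 and larp, had 0.026, 0.030 and -0.015. The larp gene encodes a broadly expressed RNA-binding protein and is not specific to the fat body. It read 8.16 in mutants and 8.18 in controls, against 14.18 and 14.15 for Lsp2, and is counted in the median and the sum. The part of these tissues in the lysozyme values was not tested.

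Genes with the most similar profiles were sought by Pearson correlation over the 6 arrays, among tested genes whose SD over the arrays was at least 0.5 of that of the lysozyme. The coefficients describe 6 values that share their arrays and the 2 genotypes, and a high one can come from the difference between genotypes alone. The 3 genes most like LysX, among 376 probesets, were CG32369 (r = 0.994), Lkr, the receptor of the neuropeptide leucokinin (0.992), and CG42633 (0.985). All 3 were lower in the mutants and called by limma, with differences of -1.64, -1.81 and -2.34 (limma adjusted p = 0.0035, 0.0013 and 0.0014). Mean levels in mutants and controls were 4.47 and 6.11 for CG32369, 5.29 and 7.10 for Lkr, and 4.51 and 6.85 for CG42633. The mutant levels of CG32369 and CG42633 thus lay at about the lowest mean kept by the filter, 4.51. Their signal in controls carried them past it, and the sizes of their differences are limited by the dim mutant signal. After each group was centred on its own mean, r with LysX was 0.763 for CG32369, 0.178 for Lkr and -0.170 for CG42633. Within groups CG32369 had SDs of 0.22 in mutants and 0.084 in controls, small beside its difference of -1.64. The likeness of all 3 genes to LysX thus lay mainly in the difference between genotypes. CG32369 was picked by r over these same arrays, so its 0.763 after centring is no separate support.

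For LysP the most similar genes, among 694 probesets, were NT5E-2, which encodes a nucleotidase (r = 0.995), the ubiquitin protease gene Usp10 (0.989) and CG3397 (0.986). Here r after centring was 0.982, 0.923 and 0.944. The genes were picked by r over these same arrays, and LysP varied widely within groups (SD 0.31). High values after centring thus follow in part from the picking and are no separate support. Their differences were 0.75, 0.84 and 1.61, and CG3397 alone was called with all 6 arrays at equal weight (limma adjusted p = 0.0200, and 0.0615 and 0.0866 for NT5E-2 and Usp10), a call lost without control replicate 3 or any 1 mutant replicate. With array weights or without control replicate 1 NT5E-2 and Usp10 were called as well, with differences without that array of 0.86 and 0.96 (limma adjusted p = 0.0228 and 0.0326).

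For LysS, among 1457 probesets, they were obst-I, of a family of chitin-binding proteins (r = 0.932), the chitin deacetylase gene verm (0.930) and CG17190 (0.930). After centring, r was 0.912, 0.892 and 0.922, with the same limit as for LysP. Their differences were -1.08, -0.29 and -0.25, and none was called in the unblocked fit at equal weights (limma adjusted p = 0.186, 0.648 and 0.697). With array weights obst-I was called (limma adjusted p = 0.0293). The lysozymes themselves correlated at -0.938 for LysX with LysP, 0.746 for LysX with LysS and -0.716 for LysP with LysS over the 6 arrays. After centring these values were -0.507, 0.499 and -0.222.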

How the data were processed

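The authors deposited 1 log2 value for each probeset on each array, made by RMA (background correction, normalization between arrays and summary over probes), per the labels; no version is given in the sources used here. RMA evens out a change shared by most transcripts. In place of the authors' filter on present calls, the fit left out 183 control probesets and then, of the remainder, the 40% dimmest by mean over the arrays. This kept 11262 probesets, none with a mean under 4.51. Each was fitted with limma 3.58.1 in R 4.3.3 (lmFit and eBayes, two-sided), with Benjamini-Hochberg adjustment over all of them and those with an adjusted p under 0.05 are called. The number of arrays, 3 per group, limits the precision.

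Probesets were named through the platform annotation (13647 with 1 symbol, 402 with several, 4720 unlisted), and 13544 were matched by gene number to RefSeq (Release 6 plus ISO1 MT), used for symbols and gene order only. A gene was read by its brightest tested probeset. Only the main limma fit was tested on simulated data, with independent noise and known changes added to some probesets. The naming of probesets, the lists, the correlations and the alternative fits were not part of that test.

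The lysozyme genes, the lists and the rule for named genes were chosen with earlier results of these data known. Named by that rule are all lysozyme family genes, the 3 genes of each other list with the smallest p, 5 neighbours per side and the 3 most similar genes per lysozyme. PGRP-SB2, Jon65Aiv, lambdaTry, the midgut markers with higher means and the remaining tested genes of the hemocyte and fat body lists are named outside the rule. Alternatives were other filters, quantile normalization, array weights, a replicate block, leaving out each array, linear means, and means over a gene's probesets. The planned comparisons of promoter and protein sequences were not run, and the order of levels between probesets was not read because probes differ in affinity. Plots used matplotlib 3.10.9 and Python 3.11.15.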

Additional observations from a re-analysis of the deposited data

How the results depend on the processing

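The signs and calls of the lysozymes follow from how they were chosen, so only their sizes are compared here. LysX ran from -1.94 to -1.79 over 10 alternatives. LysP ran from 0.99 without control replicate 2 to 1.39 without control replicate 1. LysS ran from -0.85 to -0.41, the extremes being without control replicate 1 and without mutant replicate 1. The number of called probesets, 62, was 232 with array weights and 28 with the replicate block, and ran from 12 to 84 with 1 array left out. Array weights also gave 1 called gene each among peptidoglycan recognition, antimicrobial peptide, digestive protease and ecdysone or stage genes and 2 among hemocyte markers, against 0 with equal weights. With 1 array left out, antimicrobial peptide and hemocyte calls ran from 0 to 1 each. The cause was not tested. List medians moved too: with 1 array left out, those of carbohydrases and lipases ran from -0.20 to 0.11, of digestive proteases from -0.15 to 0.081 and of antimicrobial peptides from -0.54 to -0.026. Same-numbered arrays did not deviate together throughout: r between their deviations from the group means was 0.053, -0.189 and 0.323 for numbers 1, 2 and 3, and mutant replicate 1 correlated better with control replicate 2 (0.180), so the numbers were not taken as pairs. Of 60 genes named by the rule outside the members, 9 were newly called with array weights, 4 without control replicate 1 and 1, obst-I, with the replicate block. CG3397 lost its call under the block and without control replicate 3 or any 1 mutant replicate. No called gene turned its sign.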
